A study of Microcebus murinus with 18 samples.

Results

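GABA is the main inhibitory transmitter of the cortex. It is made from glutamate by the glutamate decarboxylases, loaded into vesicles, released by local interneurons, and sensed by GABA-A receptors, which are chloride channels built from several subunits, and by GABA-B receptors, which act through G proteins. Interneurons fall into classes that are told apart by the neuropeptides and calcium-binding proteins they carry, among them somatostatin, vasoactive intestinal peptide and parvalbumin. The 34 genes described here cover this system from synthesis to receptors, together with the peptides, calcium-binding proteins and transcription factors that mark interneurons. They were chosen by symbol, and every probe set annotated to one of these symbols was taken, which gave 72 probe sets of 1 symbol among 54675 on the array. A further 2 probe sets carried a second symbol and were not used.

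RNA from the temporal cortex of the right hemisphere of 18 grey mouse lemurs (Microcebus murinus), small primates from a captive-bred colony, was hybridised to human oligonucleotide arrays, 1 array per animal. The AD-like group held 2 old females with a mean age of 10 years, F1 and F2, with cerebral amyloid plaques and cortical atrophy. The old group held 10 animals of about 8 years on average without that pathology, 7 females (F1 to F7) and 3 males (M1 to M3). The young adult group held 6 animals of about 1 year, 4 females (F1 to F4) and 2 males (M1 and M2). Every animal of all 3 groups received ketamine before death, so no group was free of it. The AD-like group also had the higher mean age and both its animals were female, so pathology cannot be told apart from age or, in comparisons with the mixed groups, from sex.

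Human probes were used on lemur RNA, so the signal of a probe set depends on how well its probes match the lemur transcript, and no probe set's level is set against that of another. Of the 72 probe sets, 41 passed a filter on dim probe sets (the third-highest signal of the 18 arrays had to reach 150), which is 56.9% of them, against 26.7% over all probe sets that are not controls. The last member inside the filter had a third-highest signal of 153 and the first outside had 140. These 41 stand for 27 of the 34 genes. The 7 genes with none were the GABA-A subunits GABRA4, GABRG1 and GABRG3, the GABARAP relative GABARAPL1, and the peptide precursors VIP, TAC1 and TAC3. Differences were computed on log2(signal + 16), a scale that understates the change of low signals, with limma over all 14567 kept probe sets. Because the tissue was whole cortex, fewer cells of a type and less RNA per cell cannot be told apart.

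Arrays differed in ways that the groups do not explain. The median signal of an array lay between 30.7 and 54.4, and the Spearman correlation between 2 arrays ranged from 0.613 to 0.890 over the kept probe sets. On 4 arrays (AD-like F2, old M1, old M2 and young adult M2) the poly-A control RNA that laboratories add to a sample was at or near background, with signals of at most 19.0 for the dap 3′ control, against at least 334 on the other 14. These arrays included 3 of the 5 males and 1 of the 13 females. The summed signal of 5 interneuron marker genes was 2546 and 3480 in the AD-like animals, 2461 to 4037 in the old and 1821 to 3517 in the young adult animals, so the groups overlapped. Those 5 genes are members themselves, so their sum gives no separate view of cell content. For 6 markers of all neurons the sum was 22088 and 52486 in the AD-like animals, the lower value below all old animals (33434 to 60157). In the young adult animals it was 14212 to 59761. The defining markers of interneurons (GAD1, GAD2, SLC32A1, LHX6 and DLX1) were all measured, while 1 of 6 microglial and 2 of 5 endothelial markers were.

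Across the 41 probe sets few differences between groups stood out, and the shares were near those over the array as a whole. In AD-like against old animals 1 member probe set was higher at an unadjusted p under 0.05 and none was lower, while over all kept probe sets 1.22% were higher and 3.62% were lower. In old against young adult animals none was higher and 1 was lower, beside 3.49% higher and 2.42% lower over all. In AD-like against young adult animals 0 were higher and 0 lower, beside 1.13% and 3.21%. After Benjamini-Hochberg adjustment in limma no member passed 0.05 in any of these comparisons; over all kept probe sets the shares were 0.00686% for AD-like against old, 0% for old against young adult and 0% for AD-like against young adult. Nor did both AD-like animals lie above all 10 old animals, or both below them, for any of the 41, where 1.39% and 1.63% of all kept probe sets did so.

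The precision of these comparisons sets what they can show. The 95% confidence interval of a difference had a median half-width of 0.95 on the log2 scale for AD-like against old, of 0.63 for old against young adult and of 1.00 for AD-like against young adult. The interval included 0 for 40, 40 and 41 of the 41 probe sets in these comparisons, so most members may differ by amounts within those widths. The median difference of the members was −0.14 for AD-like against old (all kept probe sets, −0.02), −0.12 for old against young adult (all, 0.03) and −0.13 for AD-like against young adult (all, 0.01). The plot of differences shows every kept probe set with its interval.

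**Figure D1:**
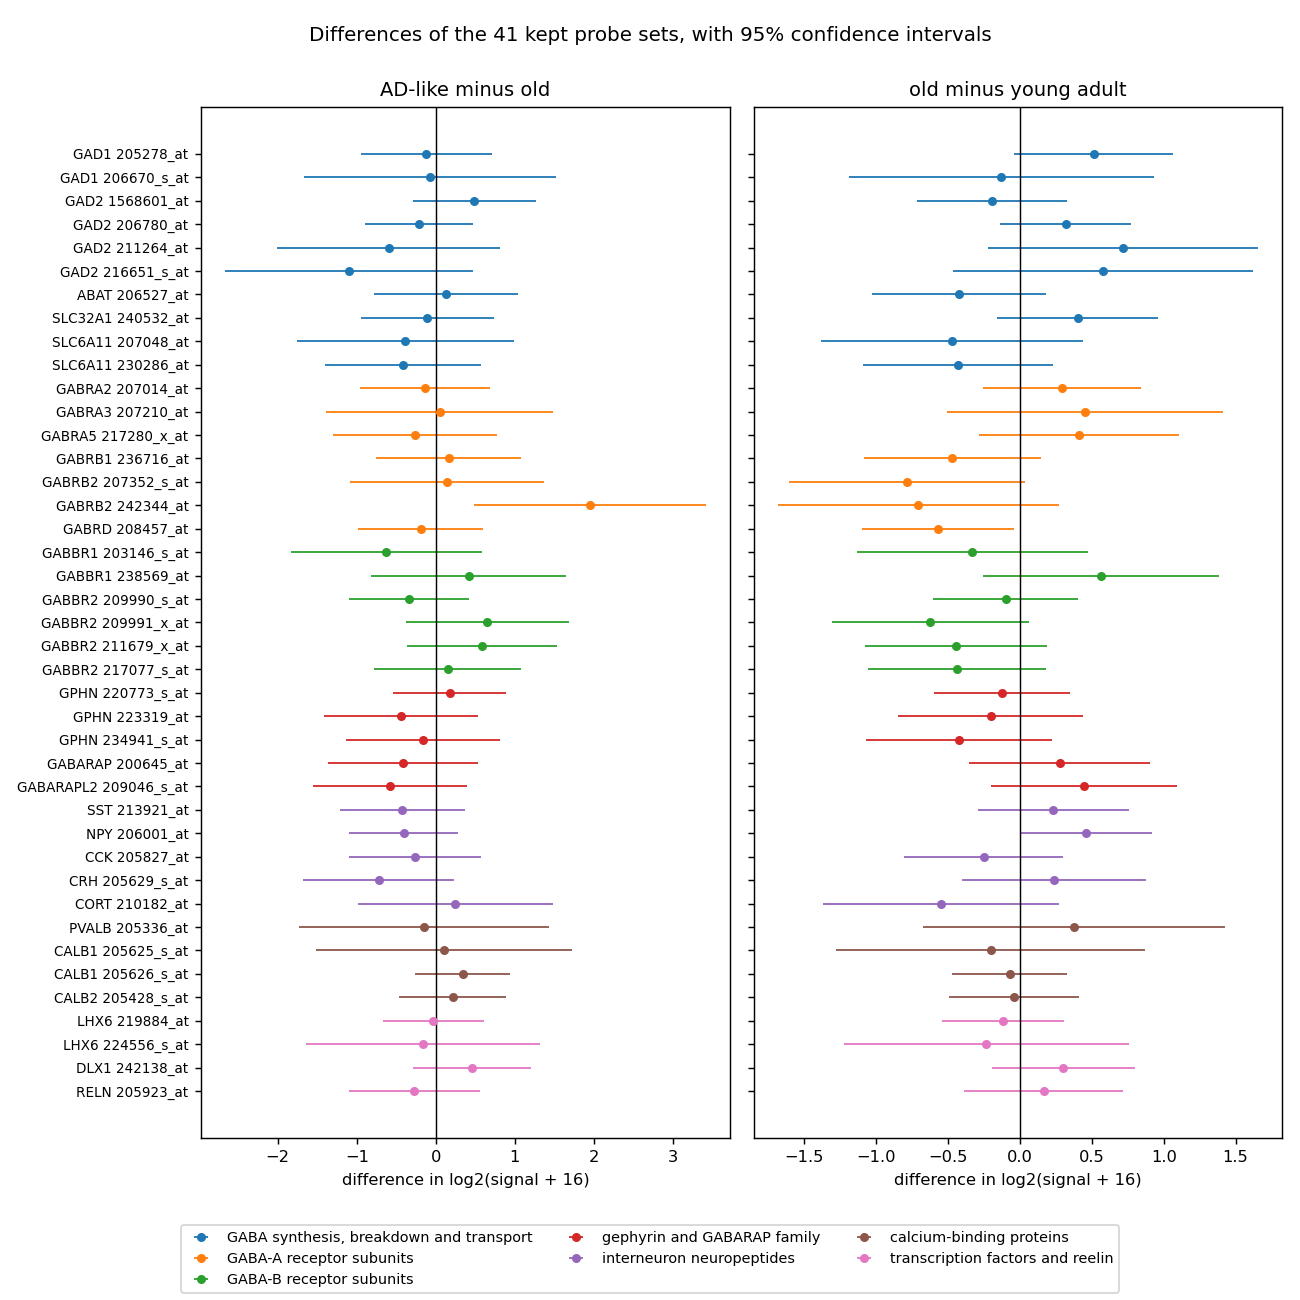
Difference in log2(signal + 16) of each of the 41 kept probe sets (points) with its 95% confidence interval from limma (bars), AD-like minus old on the left (2 against 10 animals) and old minus young adult on the right (10 against 6), coloured by the role of the gene. The interval lies clear of 0 for GABRB2 242344_at on the left, at 1.95, and for GABRD on the right, at −0.57; the horizontal scales of the panels differ.

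The glutamate decarboxylase genes GAD1 and GAD2 encode the enzymes that make GABA. GAD1 probe set 205278_at gave 1482 and 1301 in the AD-like animals, 965 to 2185 in the old (median 1616) and 646 to 1940 in the young adult animals (median 1039). The log2 difference was −0.12 between AD-like and old animals and 0.51 between old and young adult animals (95% interval −0.04 to 1.06, limma adjusted p 0.85), and all groups overlapped. The other GAD1 probe set, 206670_s_at, gave −0.13 for old against young adult, a value of the opposite sign. GAD2 probe set 206780_at had 594 and 407 in the AD-like animals, 401 to 816 in the old and 301 to 650 in the young adult animals, with differences of −0.22 for AD-like against old and 0.32 for old against young adult.

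Among the other GAD2 probe sets 2 had the same signs as 206780_at in both comparisons and 1 the opposite signs. Probe set 211264_at reached 1259 and 990 in old M1 and M2, where no other animal of any group exceeded 286, and both of these arrays lacked the poly-A control RNA. Its difference was −0.59 for AD-like against old and 0.72 for old against young adult (limma adjusted p 0.86). Probe set 216651_s_at had 263 and 47.1 in the AD-like animals, 147 to 501 in the old and 18.1 to 538 in the young adult animals, with differences of −1.10 for AD-like against old and 0.58 for old against young adult. Its lowest values were in young adult M2 (18.1), AD-like F2 (47.1) and young adult M1 (57.7). Young adult M2 and AD-like F2 were on arrays without the control RNA and young adult M1 on an array with it. Old M1 (258) and old M2 (242), also without it, were inside the old range. With group in the model, arrays without the control RNA differed from the others by −1.28 for 216651_s_at (limma adjusted p 0.088). For 211264_at they differed by 1.18 (limma adjusted p 0.075), and both were at an unadjusted p under 0.05. The fourth, 1568601_at, differed by 0.49 for AD-like against old and by −0.19 for old against young adult.

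Downstream of synthesis, SLC32A1 encodes the vesicular GABA transporter, ABAT the transaminase that breaks GABA down, and SLC6A11 a plasma membrane GABA transporter found mainly on astrocytes. SLC32A1 had 351 and 179 in the AD-like animals, 141 to 490 in the old and 120 to 328 in the young adult animals, with a difference of 0.40 for old against young adult (−0.16 to 0.96). ABAT had 166 and 297 in the AD-like animals, 50.2 to 293 in the old (median 218) and 205 to 382 in the young adult animals (median 294), a difference of −0.42 for old against young adult (−1.03 to 0.18). SLC6A11 gave −0.43 and −0.47 in that comparison through its 2 probe sets. Its signals in AD-like F2, 31.5 and 20.0 for 230286_at and 207048_at, lay far below those in AD-like F1, 169 and 201. The array of F2 was one of those without poly-A control RNA. Old M1, old M2 and young adult M2, also without it, had 135, 144 and 110 for 230286_at and 100, 19.4 and 173 for 207048_at. With group in the model, arrays without it differed from the others by −0.26 and −0.94 (limma adjusted p 0.64 and 0.16). None of these 3 genes passed the test in any comparison.

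**Figure D2:**
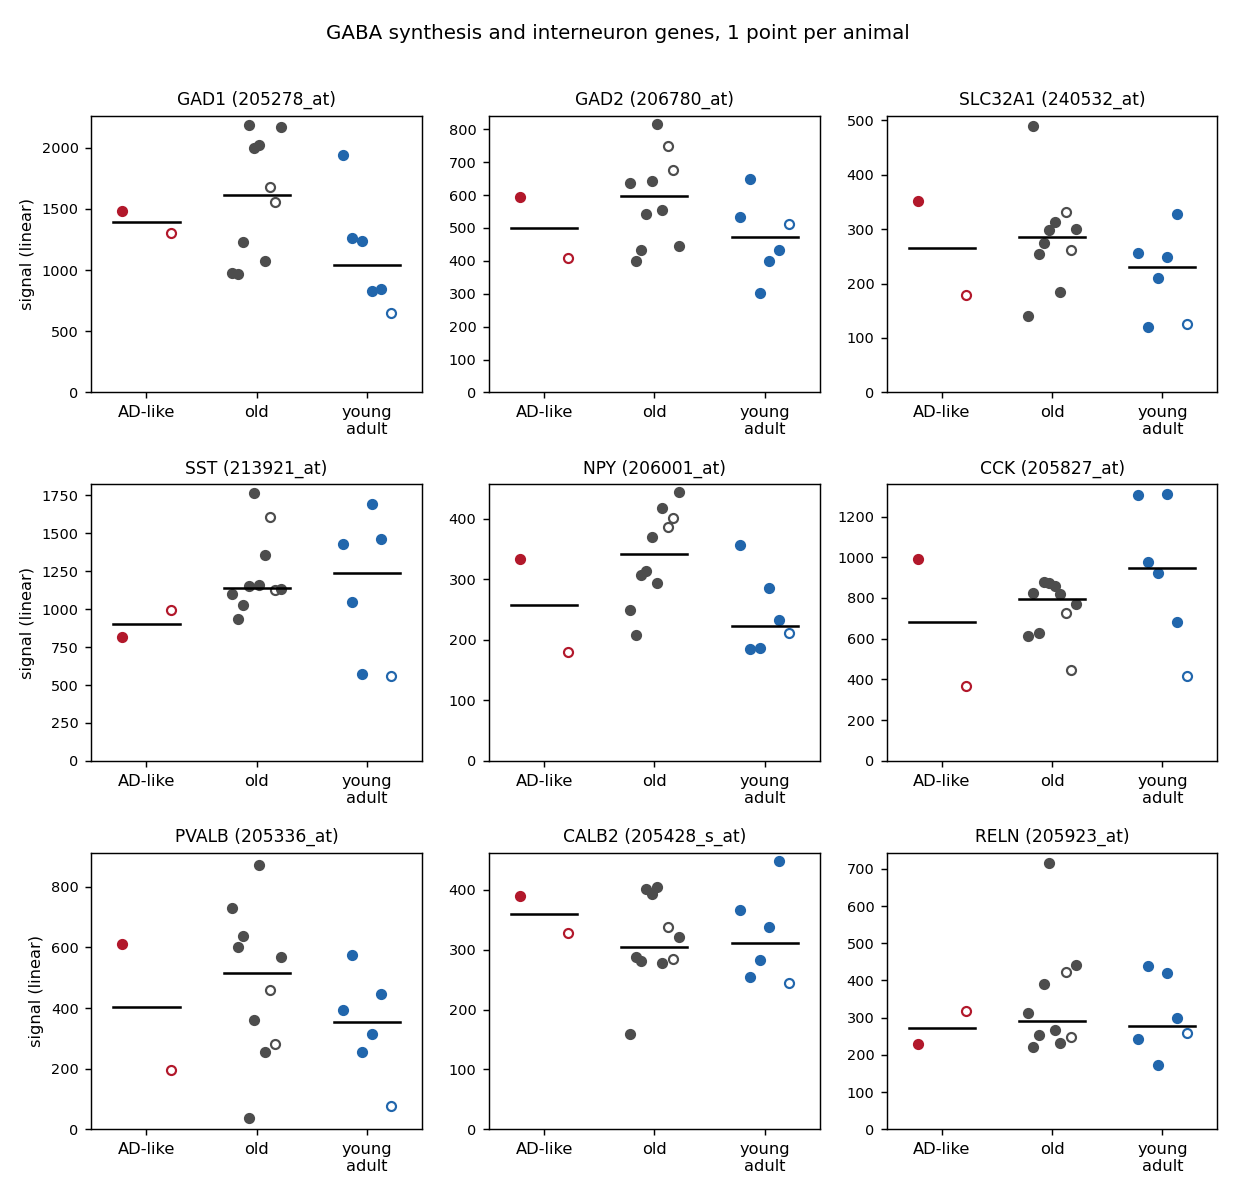
Signal (linear axis) of 9 probe sets for GABA synthesis, vesicular loading, neuropeptides, calcium-binding proteins and reelin in each animal, with AD-like, old and young adult animals from left to right. Lines mark group medians and open circles the 4 arrays without poly-A control RNA; in every panel the groups overlap, as for NPY with 207 to 444 in old and 185 to 357 in young adult animals.

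GABA-A receptors are assembled from alpha, beta and a further subunit, and the delta subunit, encoded by GABRD, is found in receptors outside synapses that carry tonic inhibition. The GABRD signal was 270 in AD-like F1 and 227 in AD-like F2, 130 to 460 in the old animals (median 284) and 295 to 711 in the young adult animals (median 406). Both AD-like animals were below all young adult animals, as they also were for GPHN 234941_s_at (367 and 409 against 432 to 1002). The share of all kept probe sets with that pattern is not given. Old F2 at 460, M3 at 449, F1 at 360 and M1 at 296 were above the lowest young adult animal, M2 at 295. The difference between old and young adult animals was −0.57 on the log2 scale (SE 0.25, 95% interval −1.10 to −0.04), with a limma adjusted p of 0.84 over all kept probe sets. An exact permutation test over the 16 animals, two-sided, gave p = 0.032, where the smallest of its 8008 splits allows 0.000125. That test was run only for member probe sets already at an unadjusted p under 0.05. It used the same values without correction for that choice, so it gives no separate support. The difference was −0.77 between AD-like and young adult animals and −0.19 between AD-like and old animals.

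The GABRD difference was −0.69 with the 4 arrays without poly-A control RNA left out, and lay between −0.73 and −0.40 over every setting tried. It no longer reached an unadjusted p under 0.05 when old F4 (130) or old F6 (223), or young adult F4 (711) or M1 (539), was left out, with values of −0.46, −0.54, −0.43 and −0.51, or with the replicate block (−0.59). The arrays of old F4 and old F6 also had the highest log2 ratios of 3′ to 5′ GAPDH signal, read as a sign of RNA quality, at 1.56 and 1.22, against at most 0.79 on the other 16. Without both of them the GABRD difference was −0.40 and did not reach an unadjusted p under 0.05. By the actin ratio old F4 was again highest (−0.40), but old F6 (−1.28) was below AD-like F2 (−0.46), old M2 (−0.76) and old M1 (−0.89). The actin ratio was below 0 on every array. How well these human control probes gauge lemur RNA quality was not tested.

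GABRB2, which encodes a beta subunit abundant in cortex, was the only member with an unadjusted p under 0.05 between AD-like and old animals. The signal of probe set 242344_at was 11534 in AD-like F1 and 3917 in AD-like F2. In the old animals the signals were 795, 2652, 909, 1474, 777, 2350 and 5800 for F1 to F7 and 1614, 3473 and 1395 for M1 to M3, and in the young adult animals they were 1197, 5325, 3364 and 7494 for F1 to F4 and 1169 and 2736 for M1 and M2. AD-like F1 was above all other animals, while AD-like F2 was below old F7 and inside the young adult range. The log2 difference between AD-like and old animals was 1.95 (SE 0.70, 95% interval 0.48 to 3.41, limma adjusted p 0.84). The exact permutation test, two-sided, gave p = 0.0303 over 66 splits, with 0.0152 the smallest it can give. As for GABRD, the probe set was chosen by its limma p, so the test gives no separate support.

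AD-like F1 decided the size of the GABRB2 value. Without it the difference between AD-like and old animals was 1.17 and no longer reached an unadjusted p under 0.05; without AD-like F2 it was 2.73, and without all 4 arrays lacking poly-A control RNA, which leaves AD-like F1 alone in its group, 2.84. The second kept GABRB2 probe set, 207352_s_at, had 848 and 520 in the AD-like animals, 218 to 1357 in the old (median 534) and 412 to 1996 in the young adult animals (median 1043). It differed by 0.14 between AD-like and old animals, so the higher signal of 242344_at was not seen there. Between old and young adult animals the 2 kept probe sets gave −0.71 (242344_at) and −0.79 (207352_s_at), both with intervals that include 0. The third, 1557122_s_at, lay outside the filter at medians of 57.8 in old and 12.2 in young adult animals. Without the filter it had the opposite sign, 1.04, at an unadjusted p under 0.05 (limma adjusted p 0.93). In that fit 3 of 72 member probe sets (4.17%) were called in this comparison, beside 5.36% of all.

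**Figure D3:**
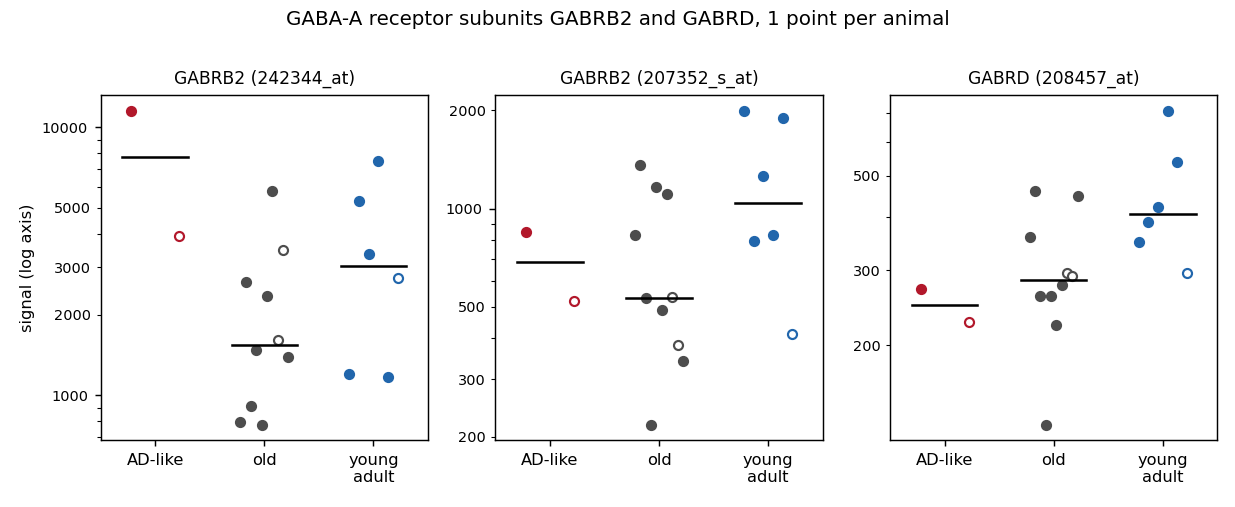
Signal (logarithmic axis) of both kept GABRB2 probe sets and of GABRD in each animal, with AD-like, old and young adult animals from left to right, group medians as lines and open circles for the 4 arrays without poly-A control RNA. GABRB2 242344_at reaches 11534 in AD-like F1, and GABRD reaches 460 among the old and 711 among the young adult animals.

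The remaining kept GABA-A subunit probe sets had low signals. The alpha subunit genes GABRA2, GABRA3 and GABRA5, whose products set the receptor's location and drug sensitivity, had median signals of 140, 109 and 123 in the old animals and of 94.3, 79.9 and 103 in the young adult animals. Their differences between old and young adult animals were 0.29, 0.45 and 0.41, with limma adjusted p of 0.897, 0.905 and 0.888. GABRB1, another beta subunit gene, had 73.8 and 112 in the AD-like animals, 45.6 to 170 in the old and 45.4 to 230 in the young adult animals, a difference of −0.47 for old against young adult (−1.08 to 0.14). In the lemur annotation GABRB1, GABRA4, GABRA2 and GABRG1 follow each other with 1 further protein-coding gene among them, between GABRA4 and GABRA2, and GABRA5 and GABRG3 are neighbours.

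Several subunit probe sets outside the filter were higher in the AD-like animals at signals where these arrays measure little. Without the filter, 4 of 72 member probe sets (5.56%) were higher in the AD-like group than in the old group, again counted at an unadjusted p under 0.05, against 3.93% of all probe sets. Besides GABRB2 242344_at these were GABRG1 1552943_at, GABRA2 1554308_s_at and GABRG3 1555517_at. GABRA2 1554308_s_at had 33.7 and 63.8 in the AD-like animals and 3.22 to 29.9 in the old, a difference of 1.07 (limma adjusted p 0.86). GABRG3 1555517_at had 43.0 and 52.1 against 1.92 to 44.5, a difference of 1.11 (limma adjusted p 0.74). In the same fit the other GABRA2 probe sets gave −0.14, 0.18 and 0.32, and the other GABRG3 probe set gave 0.04. GABRG1 1552943_at had 74.7 and 99.2 in the AD-like animals, 2.32 to 53.7 in the old and 22.8 to 88.8 in the young adult animals. For it and for GABRA2 1554308_s_at the AD-like animals lay above all old animals, but not both above all young adult ones. The share of all probe sets without the filter that did so is not given. The log2 difference of GABRG1 1552943_at from old animals was 1.35 (limma adjusted p 0.69). The other GABRG1 probe set, 241805_at, had 74.1 and 86.4 in the AD-like animals against 12.1 to 80.1 in the old. GABRA4 had at most 213 in any animal, reached in an old one.

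GABA-B receptors are obligate pairs of GABBR1, which binds GABA, and GABBR2, which couples to G proteins. GABBR2 probe set 209990_s_at had 8603 and 4763 in the AD-like animals, 5434 to 12839 in the old (median 7704) and 4773 to 12609 in the young adult animals (median 8983), with differences of −0.34 for AD-like against old and −0.10 for old against young adult. The other 3 GABBR2 probe sets had point estimates of 0.15 to 0.65 for AD-like against old and of −0.62 to −0.44 for old against young adult, with every interval including 0. For GABBR1, probe sets 203146_s_at and 238569_at gave opposite signs in each comparison, −0.63 and 0.41 for AD-like against old, and −0.33 and 0.56 for old against young adult.

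Gephyrin, encoded by GPHN, holds GABA-A receptors at inhibitory synapses, and GABARAP and its relatives GABARAPL1 and GABARAPL2 act in receptor trafficking and autophagy. The 3 GPHN probe sets differed by −0.44 to 0.17 for AD-like against old and by −0.42 to −0.12 for old against young adult. GABARAPL2 had 1097 and 973 in the AD-like animals, 719 to 2837 in the old (median 1576) and 718 to 2401 in the young adult animals (median 877). That gave −0.58 for AD-like against old (−1.55 to 0.39) and 0.45 for old against young adult (−0.20 to 1.09). GABARAP differed by −0.42 and 0.28 in these comparisons. GABARAPL1 208868_s_at, outside the filter, had 18.7 and 89.8 in the AD-like animals. Its medians were 20.7 in the old and 69.8 in the young adult animals. Without the filter it differed by −0.78 for old against young adult, at an unadjusted p under 0.05 (limma adjusted p 0.93). The other GABARAPL1 probe set, 208869_s_at, had medians of 69.8 in the old and 102 in the young adult animals.

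Among the neuropeptides, SST (somatostatin), NPY (neuropeptide Y), CCK (cholecystokinin), CRH (corticotropin-releasing hormone) and CORT (cortistatin, a relative of somatostatin) were measured above the filter. SST had 818 and 992 in the AD-like animals, 933 to 1764 in the old (median 1140) and 559 to 1692 in the young adult animals (median 1236). AD-like F1 was below all old animals and AD-like F2 within their range, and the difference between AD-like and old animals was −0.42 (−1.22 to 0.37, limma adjusted p 0.97). NPY had 334 and 180 in the AD-like animals, 207 to 444 in the old (median 341) and 185 to 357 in the young adult animals (median 222). Its difference between old and young adult animals, 0.46 (SE 0.22, limma adjusted p 0.84), just missed an unadjusted p under 0.05 and reached it in several of the alternative settings. AD-like against old gave −0.41 for NPY.

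CCK had 991 and 370 in the AD-like animals, 448 to 880 in the old and 417 to 1312 in the young adult animals, and its lowest signals in each group were on arrays without poly-A control RNA. CRH had 122 and 90.7 in the AD-like animals, 85.2 to 344 in the old (median 187) and 78.2 to 306 in the young adult animals, with −0.72 for AD-like against old (−1.68 to 0.24). CORT differed widely between the AD-like animals, with 33.1 in F1 and 319 in F2. VIP, which marks a further interneuron class, had 7.24 and 13.5 in the AD-like animals, 5.94 to 68.1 in the old and 4.27 to 69.0 in the young adult animals, all below the filter. The tachykinin genes TAC1 and TAC3 reached 103 and 143 at most, and TAC1 had 77.9 and 103 in the AD-like animals against an old median of 38.7. Without the filter the differences between AD-like and old animals were 1.08 for TAC1, 0.67 for TAC3 and −0.87 for VIP (limma adjusted p 0.89, 0.94 and 0.92), none of them at an unadjusted p under 0.05.

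The calcium-binding proteins parvalbumin (PVALB), calbindin (CALB1) and calretinin (CALB2) label separate interneuron populations. PVALB, which marks fast-spiking cells, had 611 and 197 in the AD-like animals, 37.3 to 871 in the old (median 514) and 77.9 to 575 in the young adult animals (median 354). Its differences, −0.15 for AD-like against old and 0.37 for old against young adult, had intervals about 1 log2 unit or more to either side. CALB2 was steadier, with 390 and 328 in the AD-like animals, 160 to 404 in the old and 244 to 447 in the young adult animals, and differences of 0.21 and −0.04. The pair of CALB1 probe sets marked the extremes of spread among all members, with a within-group SD of 0.26 on the log2 scale for 205626_s_at and 1.12 for 205625_s_at, against a median of 0.59 over the members and 0.62 over all kept probe sets.

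LHX6 and DLX1 are transcription factors of developing interneurons that stay on in the adult, and RELN encodes reelin, a secreted protein of some interneurons. LHX6 probe set 219884_at had 575 and 405 in the AD-like animals, 393 to 646 in the old and 356 to 763 in the young adult animals, with differences of −0.03 for AD-like against old and −0.12 for old against young adult. DLX1 had 477 and 253 in the AD-like animals, 175 to 430 in the old and 137 to 307 in the young adult animals, and AD-like F1 was above every other animal. The DLX1 difference was 0.75 for AD-like against young adult (limma adjusted p 1.00). RELN had 228 and 318 in the AD-like animals, 222 to 716 in the old and 174 to 438 in the young adult animals, with differences within 0.27 of 0.

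More members passed a test between the 2 sets of arrays than between any groups, 12 of 41. On the 4 arrays without poly-A control RNA, 6 probe sets had higher and 6 had lower values than on the other 14 at an unadjusted p under 0.05, with group in the model. That is 14.6% each way, beside 15.0% higher and 17.4% lower over all kept probe sets, so the members did not stand apart from the array as a whole. After adjustment in limma 7 members passed (17.1%), beside 15.7% of all kept probe sets. With sex also in the model 3 passed, with quantile normalization 4, and leaving out old M1, old M2 or young adult M2 left 4, 2 and 3. The share of all kept probe sets past adjustment is not given for these fits. At an unadjusted p under 0.05 the members called were, in that order, 24.4%, 29.3%, 31.7%, 29.3% and 24.4%. Over all kept probe sets the shares were 19.7%, 30.3%, 26.2%, 24.3% and 27.1%, against 32.4% in the reported fit. With an offset of 1, an offset of 50 or median centring, 6, 9 and 6 members passed adjustment, again without the share of all given. The members called at an unadjusted p under 0.05 were then 26.8%, 36.6% and 36.6%, beside 31.2%, 33.6% and 32.8% of all kept probe sets.

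Both GABBR1 probe sets and 1 of the 4 GABBR2 probe sets were among the 7. GABBR1 203146_s_at had 30.9 to 42.7 on the 4 arrays and 83.6 to 401 on the other 14, a difference of −1.53 (limma adjusted p 0.00295), while GABBR1 238569_at had 136 to 342 on the 4 arrays and 20.2 to 161 on the others, a difference of 1.45 (limma adjusted p 0.00609). GABBR2 209990_s_at had 4763 to 5899 on the 4 arrays and 7317 to 12839 on the others (−0.79, limma adjusted p 0.0151). The other 3 GABBR2 probe sets differed by −0.08 to 0.18 between the sets of arrays. GABBR1 203146_s_at and GABBR2 209990_s_at did not overlap between the sets. The share of all kept probe sets without overlap is not given. The others past adjustment were GABRB1 (0.95), CORT (1.16), CCK (−0.83) and GPHN 223319_at (−0.89). The males on arrays with the control RNA, old M3 and young adult M1, had 179 and 401 for GABBR1 203146_s_at and 10620 and 9863 for GABBR2 209990_s_at, while AD-like F2, the female without it, had 30.9 and 4763.

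**Figure D4:**
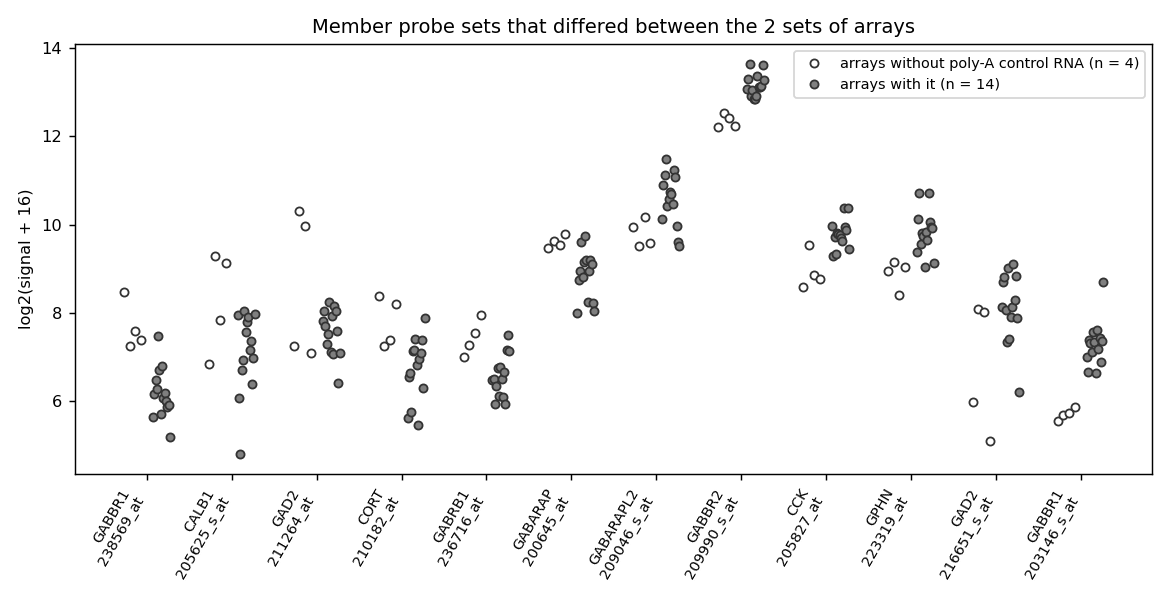
log2(signal + 16) of the 12 member probe sets with an unadjusted p under 0.05 between the 4 arrays without poly-A control RNA (open circles, left of each pair) and the 14 arrays with it (filled circles). The 2 GABBR1 probe sets lie at opposite ends, with 1.45 and −1.53. GABBR1 203146_s_at and GABBR2 209990_s_at do not overlap between the sets.

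In a test of whether the age difference itself differed between males and females, no member passed adjustment (0% of all kept probe sets did), and the smallest limma adjusted p was 0.61, for GAD2 216651_s_at.

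Genes of the same pathways outside the list were counted at an unadjusted p under 0.05 as well, beside shares over all kept probe sets of 1.22% higher and 3.62% lower for AD-like against old and of 3.49% higher and 2.42% lower for old against young adult. Of 18 kept probe sets for the inhibitory postsynapse and chloride transport, 1 was called for AD-like against old, NLGN2 226288_s_at, for an adhesion protein of inhibitory synapses (−0.94, limma adjusted p 0.83; the other NLGN2 probe set gave −0.12), and none reached that level between the old and the young adult group. Of 24 for interneuron development and identity, 2 had lower values in the AD-like group than in the old group, KCNC1 208477_at, for a potassium channel (−1.17, limma adjusted p 0.71), and DLX6 239309_at, for a transcription factor (−0.77). The second probe sets of KCNC1 and DLX6 had the opposite sign, 0.13 and 0.28. Higher values in the old group than in the young adult group were called for 2 of the 24, ACAN 205679_x_at (0.83) and PROX1 229376_at (0.77). The other ACAN probe set, 207692_s_at, was not called, and the other PROX1 probe sets gave 0.13 and 0.07. None of 9 for GABA and glutamine handling and none of 13 for receptors of the member peptides and reelin reached that level in either comparison. Of 11 for other neuropeptides, 1 had a lower value in the old group than in the young adult group, NPPA (−0.91). The single kept probe set of the other GABA receptor subunits, for GABRR2, differed by −0.40 for AD-like against old and by 0.40 for old against young adult.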

How the data were processed

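The deposited values were linear array signal intensities per probe set, scaled by the authors with GCOS 1.2, per the submitters' processing notes. Probe sets were named from the platform annotation. Probe sets with a third-highest signal of at least 150 over all 18 arrays were kept, and log2(signal + 16) was fitted with limma 3.58.1 in R 4.3.3 over the 3 groups, with Benjamini-Hochberg adjustment over all 14567 kept probe sets. Two-sided exact permutation tests were run for the probe sets at an unadjusted p under 0.05. The code was tested on simulated data. Every member symbol was accounted for. Kept member probe sets at an unadjusted p under 0.05 between groups in the reported fit were described with their signals and differences. Of each related list at most 2 probe sets per comparison were named. Genes and lists were chosen with earlier results of these data known. Alternatives covered the offset, normalization, filter, test, sex, array set, replicate block and each animal in turn. The labels name separate animals, and the number of arrays limits precision. The comparison of the 2 sets of arrays, and leaving out the arrays of highest GAPDH ratio, were added after the data were seen.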

Additional observations from a re-analysis of the deposited data

Results flagged for a closer look

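Of 82 groups of signals examined for a single animal far from its group, 7 had one, where chance gives about 1 in 20. The search used the logarithmic scale of the fits, while the values printed here are linear signals. Old M3 was low for ABAT (50.2, against 170 to 293 in the other old animals) and for SLC6A11 230286_at (29.4, against 97.8 to 156). Old F4 was low for PVALB (37.3, others 255 to 871), old F1 for CALB2 (160, others 278 to 404) and old F6 for GABBR2 211679_x_at (55.3, others 151 to 390). Among young adult animals, M1 was low for GPHN 220773_s_at (250, others 557 to 761), and M2, on an array without poly-A control RNA, was low for GABBR2 209990_s_at (4773, others 8896 to 12609). All 7 were low values.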

How the results depend on the processing

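No member passed adjustment in any group comparison under any alternative. Counts at an unadjusted p under 0.05, of 41 members unless stated, are given beside the share of all probe sets in the same fit. For old against young adult, 1 in the reported fit, the count was 2 with an offset of 1, an offset of 50, median centring or the methods' t-test. It was 2 of 27 in the brighter part of the probe sets and 3 of 72 with no filter. It was 3 with a trend and robust prior, sex as a covariate, the 4 arrays without poly-A control RNA left out, or poly-A control RNA as a block. Quantile normalization gave 4 (9.76%, beside 6.03% of all). The shares of all probe sets over the other settings in this list were 5.36% to 8.51%. For AD-like against old, 1 in the reported fit, it was 4 of 72 with no filter (all, 5.74%), 4 with sex as a covariate (9.76%; all, 11%) and 2 in females only (4.88%; all, 12%). For AD-like against young adult, 0 in the reported fit, it was 2 of 72 with no filter (all, 4.93%) and 1 of 27 in the brighter part (all, 4.15%). It was 1 with sex as a covariate (all, 8.21%), 1 with poly-A control RNA as a block (all, 5.03%) and 5 in females only (12.2%, beside 8.35% of all). Leaving out the 4 arrays leaves 1 AD-like animal assumed to vary like the other groups, so no count is given for it here. Old F4 and old F6, the arrays of highest GAPDH ratio, were also left out, a setting chosen after seeing the data. The counts were then 0 for old against young adult (all, 4.63%), 1 for AD-like against old (all, 4.71%) and 1 for AD-like against young adult (all, 4.33%).

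With the replicate block the counts were 2 for old against young adult (4.88%; all, 6.75%), 6 for AD-like against old (14.6%; all, 15.5%) and 4 for AD-like against young adult (9.76%; all, 12.7%). Animals with the same number in different groups correlated from −0.27 to 0.47 over 10 pairs, 7 of them over 0.1. The values below 0 were those of AD-like F2 with old F2 and young adult F2. Pairs of unlike number were not compared, so these values cannot tell whether the numbers pair animals. The labels state no pairing, and the reported fit uses none.

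Leaving out each animal in turn gave 0 to 5 for old against young adult (0 without old F4, old F6 or young adult M1; 5 without old F2 or young adult F1), 1 to 5 for AD-like against old and 0 to 5 for AD-like against young adult. Over these fits the shares of all probe sets were 3.44% to 8.59%, 3.84% to 7.68% and 3.89% to 6.38%. Both 5s in the AD-like comparisons came without AD-like F1, which also leaves a lone AD-like animal (all, 7.68% against old and 6.38% against young adult). The comparison of the 2 sets of arrays gave 10 to 13 with 1 of the 4 arrays left out, beside 24.3% to 29.2% of all kept probe sets. Causes were not tested. Low signals and 2 AD-like animals limit all values.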
